A study of Mus musculus with 6 samples.

Results

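The chromatin of 10 marrow niche and progenitor genes, Cxcl12, Lepr, Kitl, Grem1, Foxc1, Pdgfra, Pdgfrb, Nes, Angpt1 and Vcam1, was examined in ATAC-seq libraries of mouse skeletal stem and progenitor cells (SSPCs). ATAC-seq marks DNA that a transposase can enter, and a stretch with more reads than its surroundings is called as a peak. The genes were chosen by name, 10 of the 21853 protein-coding genes of the annotation. Peaks were collected within 1 kb of any of their transcription start sites (TSSs), in the gene body and in the 20 kb upstream, which gave 35 of the 63840 regions formed when peaks of all libraries were merged. The cells came from tibial and femoral bone marrow of untreated C57BL/6 mice, were plated in flasks, with no sort described, and were used at their first passage. The 3 young and 3 middle-aged libraries differ by the labelled age, which is given in words. How many mice went into each library is not stated in the labels, so a p-value measures the spread between these libraries. Each library is a bulk sample, in which fewer cells of a type and less accessible chromatin per cell cannot be told apart.

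In bone marrow, perivascular stromal cells that carry the leptin receptor supply factors that hematopoietic stem cells need, mainly the chemokine Cxcl12 and stem cell factor, encoded by Kitl. The transcription factor Foxc1 maintains these reticular cells, and Pdgfra, Pdgfrb and Nes serve as markers of stromal and perivascular progenitors. Vcam1 binds integrins on blood cells, Angpt1 signals to the endothelial receptor Tek, and Grem1 blocks bone morphogenetic proteins.

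The libraries held 27628 to 43941 peaks in young and 46364 to 48344 in middle-aged samples. The genome-wide background recovered from the peak values, a measure of relative depth, ran from 1.65 reads per base in young 3 to 3.75 in young 1 and from 2.40 to 2.79 in middle-aged libraries. Young 3 therefore had the fewest peaks and the lowest depth. Over all protein-coding genes, 48.4% had a TSS peak in all 6 libraries, 13.2% in some and 38.5% in none. Of 8 stromal markers, Twist1 had a TSS peak in all 6 libraries, 3 had one in some libraries, and Col3a1, Dcn, Lum and Prrx1 had none. Of 8 macrophage and hematopoietic markers, 7 had a TSS peak in all 6 libraries and Csf1r in 2. Of 8 endothelial markers, Cdh5 was called in all 6 libraries, 4 in some, and Tie1, Emcn and Sox17 in none. Of 5 contractile and pericyte markers, Acta2 was called in all 6, 1 in some, and Rgs5, Cspg4 and Des in none. The 4 lymphoid and 4 hepatocyte markers had no TSS peak, while of 4 neuronal markers Snap25 had one in 3 libraries. Of 4 erythroid markers 3 had one in some libraries and Gata1 in none. With a missing peak as 0, the median percentile rank of the TSS peaks of the macrophage and hematopoietic list, by −log10 q within a library, was 48.2 to 57.2 in young and 66.6 to 71.9 in middle-aged libraries. Over all protein-coding genes this median was also higher in middle-aged libraries, at 44.2 to 48.8 against 0 to 39.1 in young ones. On the same scale the ranks of the erythroid markers Klf1 and Epor did not overlap and were higher in middle-aged libraries by 58.5 and 36.2 on average. The start sites of these hematopoietic markers were called more often than those of the stromal markers, and the part of these cell types in the results was not tested.

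**Figure D1:**
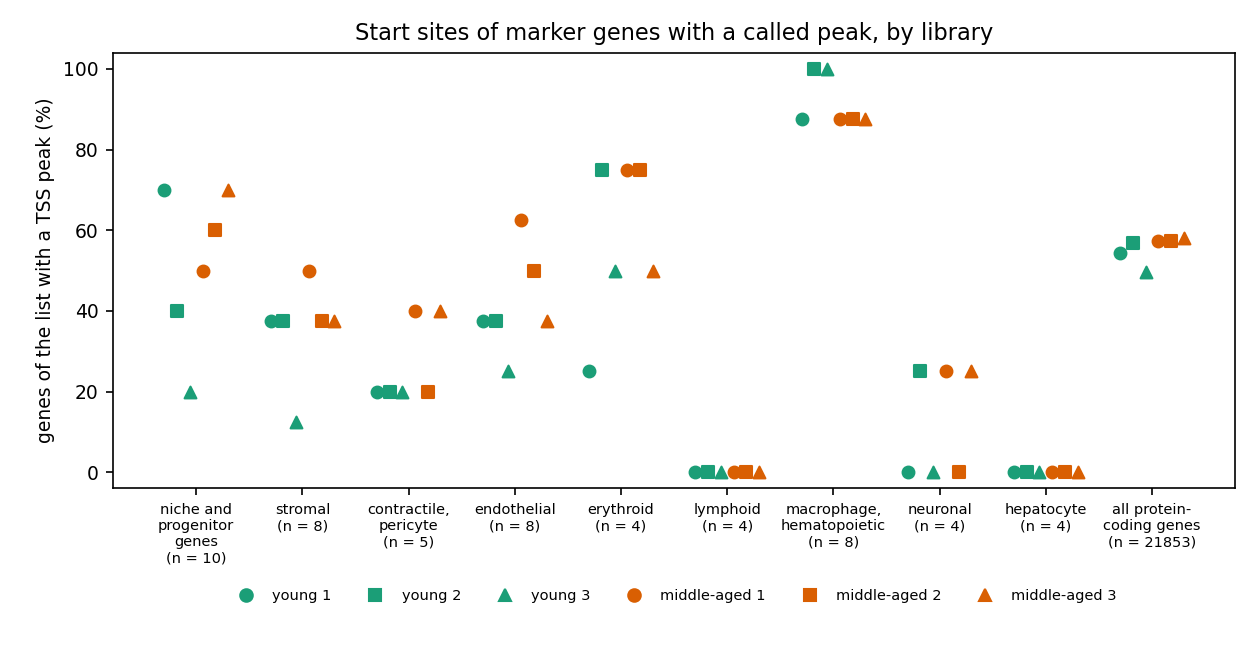
Share of each gene list with a called TSS peak (vertical axis, percent) in each library, with young libraries in green, middle-aged in orange and the list's size under its name. The niche and progenitor genes range from 20% in young 3 to 70% in young 1 and middle-aged 3, macrophage and hematopoietic markers stay above 80%, and lymphoid and hepatocyte markers lie at 0.

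A TSS peak was called for 7 of the 10 genes in at least 1 library, against 61.5% of all protein-coding genes. Kitl and Foxc1 had it in all 6 libraries, 2 of 10 against 48.4%. Lepr, Nes and Vcam1 had it in none, 3 of 10 against 38.5%. The remaining 5 of 10 genes, Cxcl12, Pdgfra, Pdgfrb, Angpt1 and Grem1, were called in some libraries, against 13.2% of all protein-coding genes (2878 genes). The genes with a TSS peak numbered 7, 4 and 2 in young 1, 2 and 3, against 5, 6 and 7 in middle-aged 1, 2 and 3. The counts of the age groups overlapped. Young libraries averaged 4.33 ± 2.52 and middle-aged libraries 6 ± 1 such genes (SD, n = 3 each). The difference of 1.67 genes was 0.5 without young 3 and 3 without young 1, so young 1 and young 3 largely set its size. Over all protein-coding genes the share with a TSS peak averaged 53.6 ± 3.72% for young and 57.6 ± 0.328% for middle-aged libraries (SD, n = 3 each).

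To place a peak within its library, its −log10 q was ranked among all peaks of that list, from 0 to 100, where 100 is the highest. Such a rank depends on how many weak peaks the list holds, and middle-aged lists were longer. With a missing peak counted as 0, the median rank over the 10 genes was 8.48, 0 and 0 in young 1, 2 and 3, against 10.2, 38.3 and 23.1 in middle-aged 1, 2 and 3. The same median over all protein-coding genes was 26.1, 39.1 and 0, and 44.3, 44.2 and 48.8. The niche and progenitor genes lay below the median of all genes in every library but young 3, where both were 0.

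**Figure D2:**
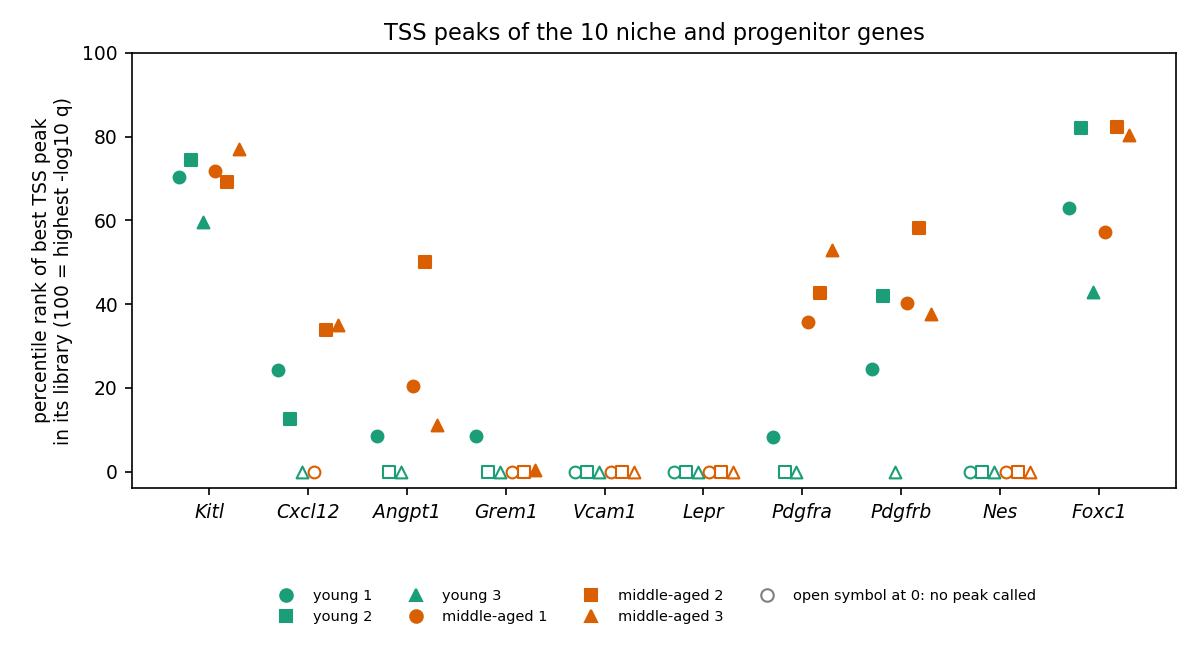
Percentile rank of the best TSS peak of each gene within its own library (vertical axis, 100 is the highest −log10 q), with a symbol per library and open symbols at 0 where no peak was called. Kitl and Foxc1 lie above 40 in all 6 libraries, Pdgfra and Angpt1 are higher in the 3 middle-aged libraries, and Lepr, Nes and Vcam1 have no TSS peak.

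For the 2 genes called in all 6 libraries, neither the ranks nor the fold enrichments of the age groups were separated. Over all genes called in all 6, ranks did not overlap for 30.6% with the middle-aged libraries higher and for 0.274% with them lower, and fold enrichments for 38.4% and 0.114%. With a missing peak counted as 0, ranks did not overlap for 2 of the 7 genes with a peak, Pdgfra and Angpt1, both higher in middle-aged libraries, against 27.6% of such genes higher and 0.268% lower. Among the 5 genes called in some libraries this was 2, against 16.7% higher and 0.243% lower. Without young 3 it was again 2 of 7, against 29.7% higher and 2.16% lower. The same 2 genes were the ones called in at least 2 more middle-aged than young libraries, against 4.51% of such genes, and none was called in at least 2 more young libraries, against 0.178%. The smallest two-sided p of an exact permutation test on 3 against 3 libraries is 0.1, so no single gene could pass 0.05.

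Kitl, the ligand of the receptor Kit, has its body at chr10:100015630-100100416. Its promoter was open in every library, in a region of 903 bp at chr10:100015451-100016353 that covers the gene's 4 start sites and part of an exon with UTR. The TSS rank was 70.4, 74.5 and 59.6 in young 1, 2 and 3, against 71.8, 69.1 and 76.9 in middle-aged 1, 2 and 3. Young 3 was lowest and the groups overlapped, with means of 68.2 ± 7.70 and 72.6 ± 3.98 (SD, n = 3 each; two-sided exact permutation p = 0.5). The fold enrichment of the summit over its local background was 7.48, 8.46 and 7.49 in young libraries and 7.84, 7.25 and 8.64 in middle-aged ones. These values interleaved, with means of 7.81 ± 0.561 and 7.91 ± 0.702 (SD, n = 3 each; two-sided exact permutation p = 0.9). Measured instead over the genome-wide background of the library, the Kitl summit height was 11.5, 15.9 and 14.6 in young libraries and 16.1, 16.2 and 17.9 in middle-aged ones. On this scale every middle-aged library was higher, with means of 14.0 ± 2.27 and 16.8 ± 0.991 (SD, n = 3 each; two-sided exact permutation p = 0.1), as for 60.7% of genes called in all 6, while 0.0284% were lower in every middle-aged library. Away from this promoter, Kitl had 1 further region in the TSS window and 3 in introns, 16.9, 43.5 and 49.9 kb downstream of the nearest TSS. Each of them was called in 1 to 3 libraries, at ranks of at most 38.3.

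Cxcl12, the chemokine that holds hematopoietic stem cells in the marrow, has its body at chr6:117168535-117181367. Its TSS region at chr6:117168306-117168851, which covers all 3 start sites, ranked at 24.2 and 12.5 in young 1 and 2 and at 33.9 and 35.0 in middle-aged 2 and 3. Young 3 and middle-aged 1 had no peak there. The groups overlapped, with means of 12.2 ± 12.1 and 23.0 ± 19.9 when missing peaks count as 0 (SD, n = 3 each; two-sided exact permutation p = 0.6). The fold enrichment of the called peaks was 3.85 and 3.76 in young and 4.56 and 4.34 in middle-aged libraries. The region most often called at Cxcl12 was not the promoter but lay 1.51 kb upstream of it. It was called in every library but young 3, with ranks of 33.2 and 55.8 in young 1 and 2 and of 53.7, 31.9 and 46.5 in middle-aged 1, 2 and 3. The called values overlapped between the groups. In young 3 the peak nearest to a Cxcl12 start site was 103 kb away. The third region, in an exon 5.47 kb downstream, was called in middle-aged 2 alone at a rank of 38.9. Shown is the window of 100 bases either side of the summit of the upstream region's peak with the highest −log10 q. The window was chosen because the region is the most often called element at Cxcl12. It holds a CTCF match (capitals, the letters CAG, any base and GGGCGC on either strand). The window lies at chr6:117166929-117167129 of mm10, plus strand.
Cxcl12 upstream summit: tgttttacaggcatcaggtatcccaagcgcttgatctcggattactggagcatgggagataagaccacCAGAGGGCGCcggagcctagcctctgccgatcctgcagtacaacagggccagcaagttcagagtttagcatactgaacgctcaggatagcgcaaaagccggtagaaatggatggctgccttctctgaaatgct

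Angpt1, a ligand of Tek, has its body at chr15:42424723-42676977 on the minus strand. Its strongest regions were intronic and were called in all 6 libraries. The region 2.02 kb downstream of the TSS, at chr15:42674795-42675136, had the highest mean rank of the 7 regions called throughout, 83.2. It ranked at 86.9, 82.5 and 81.1 in young 1, 2 and 3, against 80.1, 88.8 and 79.9 in middle-aged 1, 2 and 3. No library stood apart, and the groups overlapped (means 83.5 ± 3.05 and 82.9 ± 5.09, SD, n = 3 each; two-sided exact permutation p = 0.8). The region 156 kb downstream ranked at 80.1, 81.3 and 64.4 in young libraries and at 85.7, 80.1 and 77.5 in middle-aged ones. Here young 3 was lowest and the groups overlapped again (two-sided exact permutation p = 0.5). Another intronic region, 56.4 kb downstream, was called in every library but young 3, at ranks of 10.9 to 49.2.

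At the Angpt1 start site itself, the rank was 8.47 in young 1 and 20.4, 50.1 and 11.2 in middle-aged 1, 2 and 3, where young 2 and 3 had no peak. All middle-aged values exceeded all young ones, with means of 2.82 ± 4.89 and 27.2 ± 20.3 when missing peaks count as 0 (SD, n = 3 each; two-sided exact permutation p = 0.1). These peaks did not share a position. In young 1 and middle-aged 1 they lay at chr15:42676100-42676399, 697 bp downstream of the TSS, and in middle-aged 2 and 3 at chr15:42677421-42677673, 564 bp upstream. Both places also overlap an exon of the antisense gene Gm17473, and accessibility carries no strand. The separation of the age groups at the Angpt1 TSS thus combines 2 regions, neither of which separated the groups by itself. With a TSS window of 2000 bp, which takes in the strong intronic region, the rank difference went from 24.4 to −0.54. It was 13.0 without middle-aged 2 and 5.19 when every list was cut to its 27628 best peaks.

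The summit windows of the 2 strongest Angpt1 regions are shown because they are the highest-ranked elements of the 10 genes called in all 6 libraries. Capitals mark an AP-1 match (TGANTCA) and a RUNX match (TGTGGT) on either strand in the first, while none of the searched motifs is in the second. They lie at chr15:42674867-42675067 and chr15:42520814-42521014 of mm10 and are written on the plus strand, opposite to the gene.
Angpt1 intron near the TSS: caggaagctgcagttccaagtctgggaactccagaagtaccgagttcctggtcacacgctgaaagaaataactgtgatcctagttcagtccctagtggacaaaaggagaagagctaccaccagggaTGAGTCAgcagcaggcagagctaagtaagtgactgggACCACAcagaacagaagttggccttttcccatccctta
Angpt1 distal intron: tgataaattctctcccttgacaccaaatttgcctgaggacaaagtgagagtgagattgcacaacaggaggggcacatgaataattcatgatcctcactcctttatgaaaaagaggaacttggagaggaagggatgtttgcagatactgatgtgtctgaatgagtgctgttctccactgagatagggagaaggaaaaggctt

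Grem1, an inhibitor of bone morphogenetic proteins that marks skeletal progenitors, has its body at chr2:113746164-113758646 on the minus strand. A TSS peak was called only in young 1 and middle-aged 3, at ranks of 8.50 and 0.276, in a region 992 bp downstream of the start site. A region 6.58 kb upstream was called in 3 libraries, at 2.47 in young 2, 38.4 in middle-aged 1 and 6.84 in middle-aged 2. No library had both regions, and Grem1 values lay near the bottom of their lists except in middle-aged 1.

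Vcam1, an adhesion molecule for integrins on blood cells, has its body at chr3:116109949-116129688 on the minus strand and had no TSS peak in any library. Its main region overlapped an exon annotated in part as UTR, 6.01 kb downstream of the nearest TSS, at chr3:116122748-116123109. The rank there was 55.2 and 45.9 in young 1 and 2, against 68.6, 70.8 and 68.4 in middle-aged 1, 2 and 3, and young 3 had no peak. Every middle-aged library was higher than every young one, also among the called libraries alone. A rank difference with equally long lists is not given for this region. With the missing peak as 0 the means were 33.7 ± 29.6 and 69.3 ± 1.37 (SD, n = 3 each; two-sided exact permutation p = 0.1). The fold enrichment was 6.11 and 6.00 in young 1 and 2, against 8.50, 8.74 and 8.04 in middle-aged 1, 2 and 3. This region and the Pdgfra TSS region were 2 of 35 whose ranks did not overlap with the middle-aged libraries higher, against 15.3% of all merged regions, and none was lower, against 0.287%.

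Lepr, the leptin receptor that marks niche stromal cells, has its body at chr4:101717404-101815352. No peak was called within 1 kb of its 2 start sites or anywhere in its 97.9 kb gene body in any library. A single region was found, 9.32 kb upstream, at chr4:101707836-101708325. It ranked at 9.84 in young 2 and at 7.67, 0.597 and 11.8 in middle-aged 1, 2 and 3, and was not called in young 1 and 3. All 4 values lay near the bottom of their lists, and the groups overlapped (two-sided exact permutation p = 0.5). In young 1, the deepest library, the nearest peak to a Lepr start site was 63.6 kb away. The summit window of this sole region at the gene, at chr4:101707915-101708115 of mm10, is shown on the plus strand, with a RUNX match on the minus strand (TGTGGT) and a CCAAT box in capitals.
Lepr upstream summit: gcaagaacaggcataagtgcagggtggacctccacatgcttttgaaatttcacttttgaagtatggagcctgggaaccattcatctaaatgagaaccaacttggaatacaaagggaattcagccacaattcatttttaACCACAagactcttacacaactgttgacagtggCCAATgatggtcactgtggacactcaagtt

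Pdgfrb, a receptor for platelet-derived growth factors on pericytes and other perivascular cells, has its body at chr18:61045150-61085061. Its TSS region ranked at 24.5 and 42.0 in young 1 and 2 and at 40.3, 58.2 and 37.6 in middle-aged 1, 2 and 3, and was not called in young 3. Young 2 lay within the range of the middle-aged libraries, with group means of 22.2 ± 21.1 and 45.4 ± 11.2 (SD, n = 3 each; two-sided exact permutation p = 0.3). The rank difference of 23.2 was 12.1 without young 3 and 6.60 with equally long lists. An intronic region 29.6 kb downstream was called in all 6 libraries and ranked at 74.9, 61.9 and 45.2 in young libraries and at 54.6, 69.7 and 64.0 in middle-aged ones. These overlapped widely (two-sided exact permutation p = 0.9). The gene held 5 further regions, each called in 1 to 3 libraries. A region 26.8 kb downstream, called in young 1 and 2 alone at ranks of 6.14 and 7.49, was the only 1 of 35 called in 2 young libraries and no middle-aged library. The receptor gene Csf1r of macrophages starts 30.7 kb from the region called in all 6, so its assignment to Pdgfrb rests on position alone.

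Pdgfra, the related receptor that marks mesenchymal progenitors, has its body at chr5:75152292-75198215. Its most often called region, at chr5:75156217-75156497, was not at the most upstream start sites but 449 bp downstream of an internal one at 75155899, and overlapped an exon with UTR as well as the TSS window of the gene model Gm42803. The TSS rank was 8.16 in young 1 and 35.7, 42.7 and 53.0 in middle-aged 1, 2 and 3, while young 2 and 3 had no peak. All middle-aged libraries were above all young ones, with means of 2.72 ± 4.71 and 43.8 ± 8.70 (SD, n = 3 each; two-sided exact permutation p = 0.1). The fold enrichment was 3.49 in young 1 and 4.71, 4.96 and 5.21 in middle-aged 1, 2 and 3. The rank difference of 41.1 was 39.7 without young 3 and 43.8 without young 1. It was 6.92 when every list was cut to the 27628 best peaks. In young 2 and young 3 the peak nearest to any Pdgfra start site was 107 kb away. No peak was called within 1 kb of the 3 most upstream start sites, at 75152292, 75152306 and 75152935.

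Nes encodes nestin, an intermediate filament protein of neural and perivascular progenitors, with its body at chr3:87971078-87980451. No TSS peak was called in any library, while a region 10.1 kb upstream, at chr3:87960727-87961208, was called in all 6. Its rank was 53.8, 83.0 and 10.6 in young 1, 2 and 3, against 77.5, 71.7 and 79.4 in middle-aged 1, 2 and 3. The middle-aged values lay close together while the young ones spanned most of the scale, with means of 49.2 ± 36.4 and 76.2 ± 4.04 (SD, n = 3 each; two-sided exact permutation p = 0.4). The fold enrichment was 5.79, 12.05 and 4.91 in young libraries and 10.4, 9.05 and 10.7 in middle-aged ones, and young 2 was the highest of the 6. A second region, 15.8 kb upstream, was called in middle-aged 1 and 3 alone, at ranks of 16.4 and 15.0. The start site of Crabp2 lies 12.4 kb from the stronger region, so it too was assigned by position. Its summit window, at chr3:87960924-87961124 on the plus strand of mm10, is shown as the region with the widest spread of young ranks among the 7 called in all 6 libraries, with GC boxes (GGGCGG on either strand) in capitals.
Nes upstream summit: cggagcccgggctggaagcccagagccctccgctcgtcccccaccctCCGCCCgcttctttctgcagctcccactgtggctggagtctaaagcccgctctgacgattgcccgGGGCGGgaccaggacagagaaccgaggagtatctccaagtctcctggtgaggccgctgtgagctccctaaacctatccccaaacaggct

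Foxc1, the forkhead transcription factor of marrow reticular cells, has its body at chr13:31806633-31812476 and was called at its TSS in all 6 libraries, in a region of 1144 bp at chr13:31806300-31807443 that reaches into its exon and UTR. The TSS rank was 63.1, 82.0 and 42.8 in young 1, 2 and 3, against 57.2, 82.3 and 80.3 in middle-aged 1, 2 and 3. Young 2 matched the upper middle-aged libraries, and the means of 62.6 ± 19.6 and 73.3 ± 14.0 did not separate (SD, n = 3 each; two-sided exact permutation p = 0.6). The fold enrichment was 5.53, 8.64 and 5.45 in young libraries and 5.32, 8.19 and 7.75 in middle-aged ones (two-sided exact permutation p = 1.0). A second region called in all 6, 5.26 kb upstream at chr13:31801023-31801513, ranked at 66.3, 51.7 and 36.4 in young libraries and at 52.3, 67.9 and 66.6 in middle-aged ones. Young 3 was lowest here too, and the groups overlapped (two-sided exact permutation p = 0.2). The rank difference at the Foxc1 TSS, 10.6, was 0.721 without young 3. The upstream summit window, at chr13:31801271-31801471 on the plus strand of mm10, is shown because a GC box and a CTCF match stand side by side in it (capitals).
Foxc1 upstream summit: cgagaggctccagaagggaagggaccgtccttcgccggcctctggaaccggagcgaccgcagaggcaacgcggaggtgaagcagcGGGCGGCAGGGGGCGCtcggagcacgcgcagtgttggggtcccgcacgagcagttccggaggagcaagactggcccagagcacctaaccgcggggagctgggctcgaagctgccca

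The 35 regions lay in TSS windows (10), in other exons (3), in introns (14) and upstream (8). Of these, 7 were called in all 6 libraries, or 20%, against 35.1% of all merged regions, and 8 in exactly 1 library, or 22.9%, against 23.0%. No region was called in all 3 middle-aged and no young libraries, against 2.21% of all regions, and none in all 3 young and no middle-aged libraries, against 0.036%. More middle-aged than young libraries had a peak in 54.3% of the 35 regions and more young in 8.57%, against 47.1% and 9.02% of all regions. Regions called in every library but young 3 numbered 4, or 11.4%, against 8.60% of all regions.

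**Figure D3:**
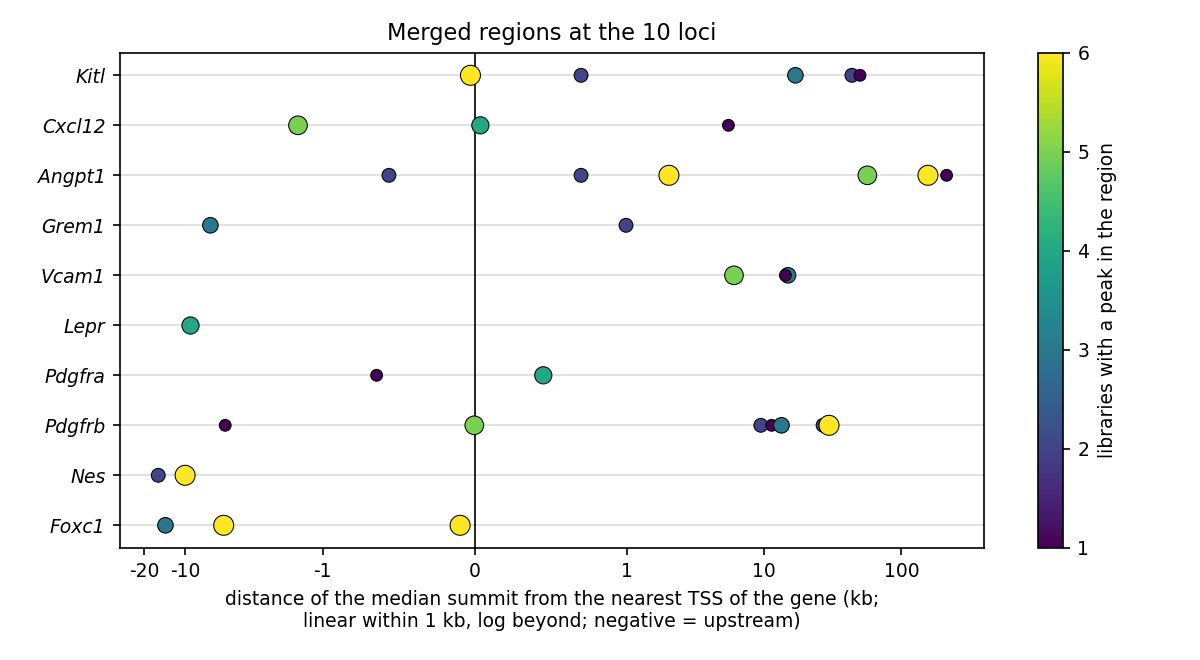
Merged regions of the 10 genes by the distance of their median summit from the nearest TSS of the gene (horizontal axis, kb, linear within 1 kb and logarithmic beyond, upstream to the left), with colour and size for the number of libraries that called each. Regions called in all 6 libraries stand at the start sites of Kitl and Foxc1 and away from them at Angpt1, Pdgfrb, Nes and Foxc1.

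Peaks over the loci of all 10 genes numbered 21, 19 and 9 in young 1, 2 and 3, against 21, 22 and 24 in middle-aged 1, 2 and 3. The groups touched at 21, and young 3 was far below the other libraries. The group means were 16.3 ± 6.43 and 22.3 ± 1.53 (SD, n = 3 each), a middle-aged to young ratio of 1.37, against 1.26 for the mean number per gene over all genes. For no single gene did the numbers of locus peaks separate the groups, against 6.60% of genes with a locus peak separated upwards and 0.0948% downwards. The exact two-sided permutation p per gene ran from 0.3 for Pdgfra, with 1, 0 and 0 peaks in young libraries and 2, 1 and 1 in middle-aged ones, to 1.0 for Foxc1 and Grem1. Foxc1 was the gene with fewer locus peaks on average in middle-aged libraries, 2.67 ± 1.15 against 3.33 ± 1.15 (SD, n = 3 each). Loci ranged from 25.8 kb for Foxc1 to 272 kb for Angpt1, so these numbers were compared between ages and not between genes.

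**Figure D4:**
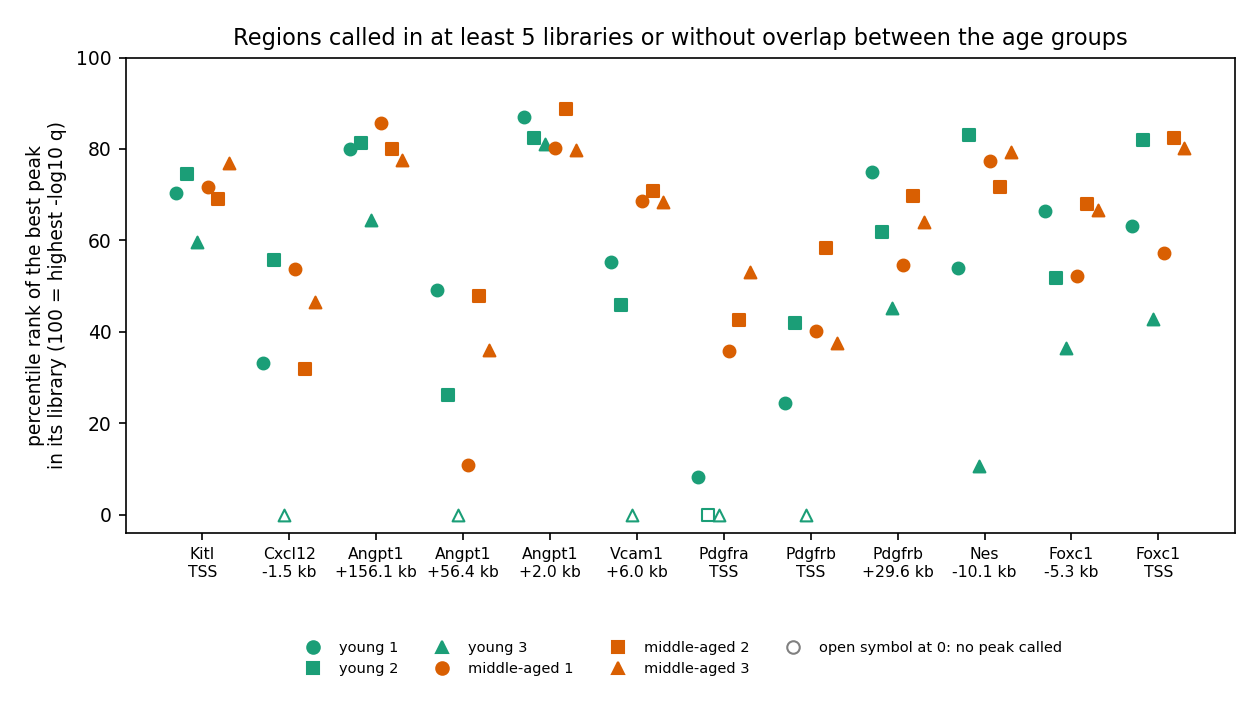
Percentile rank of the best peak in each library (vertical axis, 100 is the highest −log10 q) for regions called in at least 5 libraries or with no overlap between the age groups, named by gene and distance to the nearest TSS, with open symbols at 0 where no peak was called. The Vcam1 region at 6.0 kb and the Pdgfra TSS region are higher in all 3 middle-aged libraries, and young 3 is the lowest or missing in most of the others.

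Fold enrichments of the 7 regions called in all 6 libraries were fitted together with those of all 22403 such regions by limma, on the log2 scale and relative to the median of each library. Their ranks overlapped between the groups in each of the 7, where 24.3% of such regions were higher in every middle-aged library and 0.495% lower. None of the 7 had an adjusted p under 0.05 (limma, Benjamini-Hochberg over 22403 regions), where 0.00446% of all regions were called higher and 0.0% lower. None of them had an unadjusted p under 0.05 either, against 8.09% of all regions. The largest increase with age was at the upstream Nes region, with a log2 difference of 0.28 (SE 0.195, limma adjusted p = 0.719). The Kitl promoter differed by −0.22 (SE 0.155, limma adjusted p = 0.731) and the Pdgfrb intronic region by −0.26 (SE 0.182, limma adjusted p = 0.728). The 2 Angpt1 and 2 Foxc1 regions lay between −0.19 and 0.04. Centring removed a shift of 0.21 (log2) between the age groups in the median of all regions, so these are differences relative to that shift, and signs such as that of Kitl refer to it.

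Promoter sequence was compared with the calls because CG-rich promoters are open in most cell types. In the 300 bp from 250 bp before to 50 bp after the most upstream TSS, the median number of CG dinucleotides was 21 for genes with a TSS peak in all 6 libraries and 3 for genes with none. Foxc1, with 33, and Kitl, with 16, were called throughout. Vcam1, with 1, was called nowhere, as were 87.1% of the 1617 genes with that number. Lepr and Nes did not follow this order. Each held 18, and of the 502 genes with 18, 73.9% were called at the TSS in all 6 libraries and 10.8% in none. Grem1, with 29, was called in 2 libraries, and Cxcl12, with 20, in 4. Pdgfrb, with 7, and Angpt1, with 9, were called in 5 and 4 libraries. Pdgfra, with 4, had no peak within 1 kb of the most upstream TSS, where these CG were counted, and its calls in 4 libraries lay at the internal start site. The called TSS peaks of Grem1 and Angpt1 also lay outside the counted 300 bp, at least 836 and 444 bp from the TSS. The 250 bases before the TSS of Kitl, Cxcl12 and Lepr are shown with every CG in capitals, since these 3 niche genes have like numbers and were called in 6, 4 and 0 libraries. They lie at chr10:100015380-100015629, chr6:117168285-117168534 and chr4:101717154-101717403 of mm10, plus strand, and hold 13, 14 and 10 CG.
Kitl promoter: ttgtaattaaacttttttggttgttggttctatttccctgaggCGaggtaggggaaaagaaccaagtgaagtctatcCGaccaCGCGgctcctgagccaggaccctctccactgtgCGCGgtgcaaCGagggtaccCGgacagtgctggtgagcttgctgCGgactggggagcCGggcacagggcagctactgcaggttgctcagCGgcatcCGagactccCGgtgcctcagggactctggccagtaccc
Cxcl12 promoter: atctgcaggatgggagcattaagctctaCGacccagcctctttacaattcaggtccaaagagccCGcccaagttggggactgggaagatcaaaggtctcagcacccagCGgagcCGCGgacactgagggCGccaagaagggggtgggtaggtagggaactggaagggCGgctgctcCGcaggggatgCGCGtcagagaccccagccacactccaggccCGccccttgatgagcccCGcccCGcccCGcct
Lepr promoter: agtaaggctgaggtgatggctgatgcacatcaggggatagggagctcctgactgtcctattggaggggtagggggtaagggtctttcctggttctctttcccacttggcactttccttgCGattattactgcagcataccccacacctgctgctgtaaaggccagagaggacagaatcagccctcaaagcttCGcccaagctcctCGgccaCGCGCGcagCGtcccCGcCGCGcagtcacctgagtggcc

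**Figure D5:**
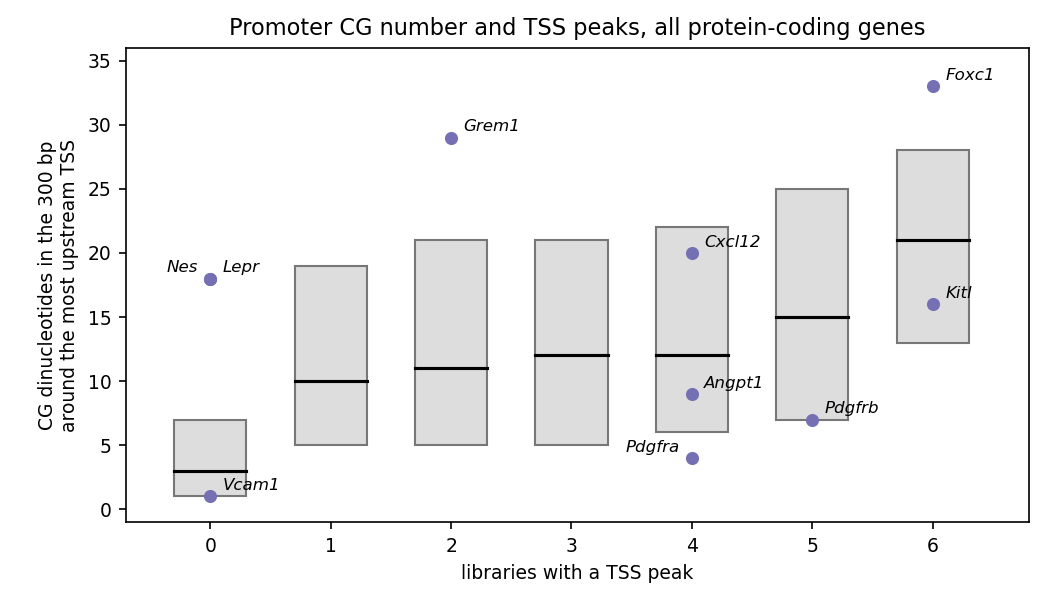
Number of CG dinucleotides in the 300 bp around the most upstream TSS (vertical axis) against the number of libraries with a TSS peak (horizontal axis), with grey boxes for the middle 50% of all protein-coding genes, black lines for their medians and points for the 10 genes. Lepr and Nes lie at 18 above the box of genes without a peak, while Vcam1 lies at 1. The calls of Pdgfra were at an internal start site, not where its CG were counted. Those of Grem1 and Angpt1 also lay outside the counted 300 bp.

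Motif letters were searched on both strands within 100 bases either side of a summit, that of each region's peak with the highest −log10 q. A CTCF match was in 3 of the 35 windows, 1 at Foxc1 and 2 at Cxcl12, against 1.31% of all windows, and this motif was added after the sequences had been seen. An AP-1 match was in 7, against 15.95%, a RUNX match in 9, against 21.3%, and a CCAAT box (CCAAT) in 7, against 23.4%. A GC box was in 7, against 19.8%, an ETS match (AGGAAGT) in 2, against 16.3%, and a TATA box (TATAAA) in 2, against 6.53%. A TEAD match (ACATTCC) was in 1, against 4.04%, and an EBF match (TCCC and GGGA with 2 free bases between) in none, against 0.705%. The CTCF letters can overlap a GC box. A match is a stretch of letters and says nothing of binding.

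Genes that act with the 10 were examined from 3 lists. Among 25 ligand and receptor partners, 12 had a TSS peak in all 6 libraries, 8 in some and 5 in none. Over all protein-coding genes these shares were 48.4%, 13.2% and 38.5%. The ranks of 7 of the 12 did not overlap, all higher in middle-aged libraries, against 30.6% of genes called in all 6. Large differences in mean rank were at the Cxcl12 receptor Cxcr4, 26.1, the receptor Bmpr1a, 23.3, and its ligand Bmp2, 19.1. Cxcr4 ranked at 40.6, 39.9 and 55.8 in young libraries and at 75.6, 70.9 and 68.1 in middle-aged ones (two-sided exact permutation p = 0.1). Cxcr4 was thus separated by age where Cxcl12 itself was not, and the difference between the 2 genes was not tested. Kit and Lep, the partners of Kitl and Lepr, had no TSS peak in any library, as had Tie1, Bmp4 and Chrdl1. These 5 were named after their values were seen.

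Among 11 niche transcription factors, 4 were called at the TSS in all 6 libraries, 5 in some and 2, Prrx1 and Tcf21, in none. The shares over all protein-coding genes were 48.4%, 13.2% and 38.5%. Ebf3 and Twist1 were the 2 of 4 without overlap, both higher in middle-aged libraries, with rank differences of 33.7 and 12.4, where 30.6% of all genes called in all 6 were separated in that direction. Runx2 and Zeb2 differed by 13.3 and 10.3, with overlap. Foxc2, the paralog of Foxc1, was called in 1 young and 3 middle-aged libraries. Among 20 other niche and progenitor genes, 11 were called in all 6 libraries, 3 in some and 6 in none. These counts stand beside the same 48.4%, 13.2% and 38.5%. Of the 11, only the nucleotidase gene Nt5e was separated, with a rank difference of 25.9, against the same 30.6%, and the adipocyte lipase gene Lpl and Fstl1 followed with 20.1 and 19.4. None of the genes of these lists called in all 6 libraries was separated with the young libraries higher, against 0.274%.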

How the data were processed

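ATAC-seq peaks of cultured marrow SSPCs were compared between 3 young and 3 middle-aged libraries, grouped by the sample titles. Per the study's methods, the authors aligned reads to mm10 with Bowtie2, removed duplicates with Sambamba and called peaks with MACS. Whether reads were shifted for the transposase is not given in the sources used here. The deposited score is the −log10 q times 10 in whole numbers. The deposited fold enrichment is a linear ratio of summit pileup over local background, each plus 1, without a control library. The authors deposited −log10 values of the p and q of each peak. The study's own age comparison needed reads and was not repeated.

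Start sites came from GENCODE (54361 TSSs) and sequences from GRCm38.p6, the same build. A peak belonged to a gene within 1000 bp of any of its TSSs, or in its body or the 20 kb upstream. Peaks overlapping by at least 1 bp were merged into regions. Ranks are by −log10 q within a list. Pileups solved from fold and −log10 p were whole for 100% of peaks (tolerance 0.001), and the lowest background of a list served as its relative depth. Read totals are not given in the sources used here. Single genes were tested with the exact permutation test over the 20 splits, and regions called in all 6 libraries with limma 3.58.1 (R 4.3.3) on log2 fold with a trend and Benjamini-Hochberg adjustment at 0.05. The limma step was also run on simulated data, with the outcome not reported here. The absence of limma calls is therefore not read as an absence of change. Python 3.11.15, numpy 2.4.6, scipy 1.17.1, pandas 2.3.3, pysam 0.24.0 and samtools 1.23.1 were used.

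The text names all 10 genes, the best TSS region of each, the strongest region elsewhere among those called in all 6 libraries, and of each partner list up to 4 genes with the largest rank difference or without a peak. Other regions were named after their values were seen. A gene of the partner lists is counted but not reported by name here. The genes and lists were chosen with earlier results of these data known. Replicate numbers gave no sign of pairing the libraries (same-number correlations −0.0414 to 0.00276 over 22403 regions). A batch shared by libraries of the same number was not tested. Alternatives were stricter, equally long or thinned lists, other windows, merging, centring and measures, a replicate block, and leaving out each library. Counting a missing peak as rank 0 in the overlap of groups was chosen after seeing the data.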

Additional observations from a re-analysis of the deposited data

How the results depend on the processing

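Which libraries called a weak peak decided several counts. Regions called in all 3 middle-aged and no young libraries went from 0 to 1 with a −log10 q of at least 5 or after thinning to the lowest background, where the young 1 peak at the Pdgfra TSS region was lost, and ranged from 0 to 1 when each library was left out. Regions called in all young and no middle-aged libraries likewise ranged from 0 to 1, with 1 without young 3, at Pdgfrb. Genes with separated TSS ranks numbered 0 among those called in all 6 libraries and 2 with a missing peak as rank 0, also 2 without young 3 and 2 without young 1. Genes with separated TSS folds went from 0 to 1, Kitl, with the pileup over the genome-wide background. Genes with more locus peaks in every middle-aged than in every young library went from 0 to 1 with a −log10 q of at least 5. They went to 2 after thinning and to between 0 and 2 when each library was left out. The replicate block gave 1, but it compared each middle-aged library only with the young library of the same number. The block changed no other call.

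With equally long lists the TSS rank difference turned to −0.44 for Cxcl12, −0.80 for Foxc1 and −6.87 for Kitl, and fell to 5.19 for Angpt1, 6.60 for Pdgfrb and 6.92 for Pdgfra, and the difference in locus peaks to −0.333 for Cxcl12, −0.333 for Kitl, −1 for Pdgfrb and 0.333 for Foxc1. This setting removes low-ranked peaks from every list but that of young 3. The TSS rank difference of Angpt1 turned to −0.54 with a window of 2000 bp, which takes in its intronic region, and that of Grem1, −2.74, ranged from −4.16 to 0.0920 when each library was left out, the latter without young 1. The difference of 1.67 in genes with a TSS peak ran from 0.333 with equally long lists to 2.33 after thinning, and from 0.5 to 3 when each library was left out. No region of the 10 genes passed limma under any of the settings run, also without centring, where the lowest adjusted p was 0.174. The peak lists hold no value where no peak was called, so weaker accessibility was not detectable there.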
